A study of Mus musculus with 121 samples.

Results

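The serotonergic and hypothalamic neuron genes described here are Slc6a4, Tph2, Fev, Pmch, Hcrt, Cartpt, Gal, Nts, Oxt and Avp. They were taken by gene symbol from a table of 24412 genes, and all 10 were found in it. Serotonin neurons of the raphe lie close to the midbrain dopamine neurons, and the lateral, posterior and mammillary hypothalamus borders the midbrain from the front. Transcripts that belong to these neighbouring neurons can therefore appear in a tissue piece taken around the substantia nigra (SN), whereas the striatum (STR) and prefrontal cortex (PFC) hold mostly the axons of such cells.

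The study raised endogenous GDNF, a growth factor for dopamine neurons, in mice carrying a conditional hypermorphic Gdnf allele (cHyper; cKU in the labels) that becomes active after Cre recombination. In the Nestin-Cre model, recombination occurs across the central nervous system from mid-gestation, and the mice are labelled as 2 months old, where the study's text gives 2 to 3 months for SN and STR; in the AAV-Cre model, AAV-Cre had been injected into both striata at 3 to 5 months of age and tissue was taken at 5 to 7 months. Each model compared wild-type littermates (WT), heterozygotes (HET) and homozygotes (HOM), all male and of mixed 129Ola/ICR/C57bl6 background, and the WT mice of the AAV-Cre model are labelled with the same injection. SN, STR and PFC had been dissected from 2-mm slices, 1 library per mouse and region, so that replicates are animals, and 121 libraries from 43 mice were analysed. The SN groups held 6 WT, 7 HET and 6 HOM libraries in the Nestin-Cre model and 7 WT, 7 HET and 8 HOM libraries in the AAV-Cre model. For STR these numbers were 6, 7 and 6 (Nestin-Cre) and 7, 7 and 7 (AAV-Cre), and for PFC 8, 6 and 4 (Nestin-Cre) and 7, 7 and 8 (AAV-Cre). Model, age and route of Cre delivery change together and cannot be told apart. Libraries held 9869584 to 26750905 counts, and levels are given as cpm, the count of a gene over the library total in the scaling usual for RNA sequencing. Single libraries are named by the titles in their labels, which join model (N or A), region, genotype and mouse number.

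Some libraries go against their labels or stand apart from the rest. The mouse of N_SN_HOM_4575 and N_STR_HOM_4575 is labelled WT in PFC (N_PFC_WT_4575). In SN, library N_SN_HET_4566 had the highest summed level of 8 striatal neuron markers, 1440 cpm against a Nestin-Cre median of 241 cpm, and A_SN_WT_3587 had 796 cpm against an AAV-Cre median of 257 cpm. Markers of choroid plexus, the tissue that secretes cerebrospinal fluid, summed to 21400 cpm in A_SN_HET_3676, where the AAV-Cre median was 41.6 cpm. The noradrenergic genes Slc6a2 and Dbh had 3.12 and 2.4 cpm in N_SN_WT_4394, against medians of 0.0488 and 0 cpm over the SN libraries. Library A_SN_HOM_3687 had the highest Pmch and the lowest Tph2 of all 41 SN libraries. These 5 libraries were picked after their values had been seen. Genotype estimates in SN within each model are also given without them, while the contrast between models was not refitted.

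Gdnf itself, the targeted gene, was low in SN. In Nestin-Cre SN it averaged 0.429 ± 0.0941 cpm in WT (SD, n = 6), 0.654 ± 0.468 cpm in HET (n = 7) and 0.694 ± 0.198 cpm in HOM (n = 6), with ranges of 0.287 to 0.521, 0.299 to 1.66 and 0.379 to 0.936 cpm. In AAV-Cre SN the lowest, median and highest values were 0.101, 0.232 and 1.07 cpm in WT, 0.249, 0.404 and 0.898 cpm in HET and 0.178, 0.473 and 0.889 cpm in HOM. Genotype groups overlapped in both models, and Gdnf did not reach the minimum of 1 cpm in 3 libraries required for a test in either SN fit. STR held more Gdnf, with means of 5.69 ± 1.15 (SD, n = 6), 6.2 ± 1.71 (n = 7) and 7.04 ± 1.40 cpm (n = 6) in Nestin-Cre WT, HET and HOM mice. In AAV-Cre STR, Gdnf averaged 6.63 ± 0.718, 7.56 ± 1.03 and 8.72 ± 0.894 cpm (SD, n = 7 each), and 7 of 7 HOM libraries lay above the highest WT library. The log2 fold change of AAV-Cre STR HOM against WT was 0.40 (SE 0.09), with an edgeR p of 0.000344 unadjusted and 0.504 adjusted. In that comparison 0% of all genes were called. For the other STR comparisons it was 0.07 (SE 0.19) in Nestin-Cre HET, 0.28 (SE 0.20) in Nestin-Cre HOM and 0.20 (SE 0.09) in AAV-Cre HET. Their unadjusted edgeR p were 0.709, 0.162 and 0.0459. By qPCR, the paper reports raised striatal Gdnf mRNA in HET and HOM mice of both models. After recombination the allele gives an mRNA with a shortened untranslated region behind the stop codon. Whether counts over the whole gene understate such an mRNA was not tested, so these fold changes do not measure the rise that the paper reports. PFC held little Gdnf, with medians of 0.392 (n = 8), 0.355 (n = 6) and 0.133 cpm (n = 4) in Nestin-Cre WT, HET and HOM mice, and means of 0.823 ± 0.332 (n = 7), 1.02 ± 0.540 (n = 7) and 0.849 ± 0.444 cpm (n = 8) in the AAV-Cre model.

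The first question is where these genes are read at all. The serotonin genes were close to absent outside SN. Slc6a4, the serotonin transporter that takes serotonin back into its neurons, spanned 0 to 44.9 cpm over the 41 SN libraries (median 16.2 cpm) and did not exceed 0.4 cpm in any STR library or 0.72 cpm in any PFC library. Its lowest SN value was a count of 0, which allows up to 0.145 cpm in that library. Tph2, the rate-limiting enzyme of serotonin synthesis in the brain, spanned 0.774 to 92.8 cpm in SN (median 29.8 cpm), up to 1.99 cpm in STR and up to 1.11 cpm in PFC. Fev, a transcription factor of the ETS family that marks serotonin neurons, stayed between 0.0988 and 2.5 cpm in SN and was at 0 in 32 of 40 STR and 32 of 40 PFC libraries. The enzyme and the transporter each reached 1 cpm in 40 of 41 SN libraries, at levels that differed many fold between mice.

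Peptide genes of the lateral hypothalamus divided into a high and a low one. Pmch, the precursor of melanin-concentrating hormone, ranged from 1.07 to 154 cpm in SN (median 6.77 cpm), against at most 1.16 cpm in STR and 0.584 cpm in PFC. Hcrt, the precursor of the orexins that promote wakefulness, ranged from 0 to 3.72 cpm in SN and passed 1 cpm in 4 of 41 libraries. The Pmch gene shares 434 of its 748 exon bases with Parpbp on the opposite strand, and the strand setting of the counting is not given in the sources used here. Parpbp reached 0.987 cpm in SN, 0.936 cpm in STR and 1.33 cpm in PFC at most, so that in SN it lay below the lowest Pmch value.

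Genes for more widely used peptides were read in all regions. Cartpt, the precursor of the CART peptides, ranged from 3.09 to 54.9 cpm in SN, 2.18 to 47.8 cpm in STR and 3.94 to 15.7 cpm in PFC. Nts, the neurotensin precursor, ranged from 5.05 to 32.7 cpm in SN, 5.00 to 59.5 cpm in STR and 0.974 to 8.32 cpm in PFC. Gal, which encodes galanin, ranged from 0.633 to 5.74 cpm in SN and 0.328 to 8.65 cpm in STR, and stayed at or below 1.15 cpm in PFC. The magnocellular hormone genes were lower in SN than in STR: Oxt (oxytocin) reached 1.02 cpm in SN and 7.44 cpm in STR, and Avp (vasopressin) reached 2.7 cpm in SN and 20.5 cpm in STR. Both STR values are those of A_STR_HOM_3570, and the next highest in STR were 3.83 cpm of Oxt (N_STR_HET_4577) and 9.2 cpm of Avp (A_STR_WT_3585).

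Per kilobase of exon, the median SN levels of the genes followed the order Tph2 (11.3 cpm per kb), Cartpt (9.78), Nts (9.72), Pmch (9.05), Slc6a4 (5.89), Gal (2.66), Oxt, Fev (0.415), Avp (0.392) and Hcrt (0.251). Ranges over libraries of the leading 5 genes overlapped, so that neighbours in this order do not differ beyond their spread. The order also changed with the model: Pmch led in Nestin-Cre SN at 24.9 cpm per kb and was the fifth in AAV-Cre SN at 3.76 cpm per kb, whereas Cartpt led in AAV-Cre SN at 21.7 cpm per kb and was the fourth in Nestin-Cre SN at 7.01 cpm per kb. These differences between models were not tested.

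**Figure D1:**
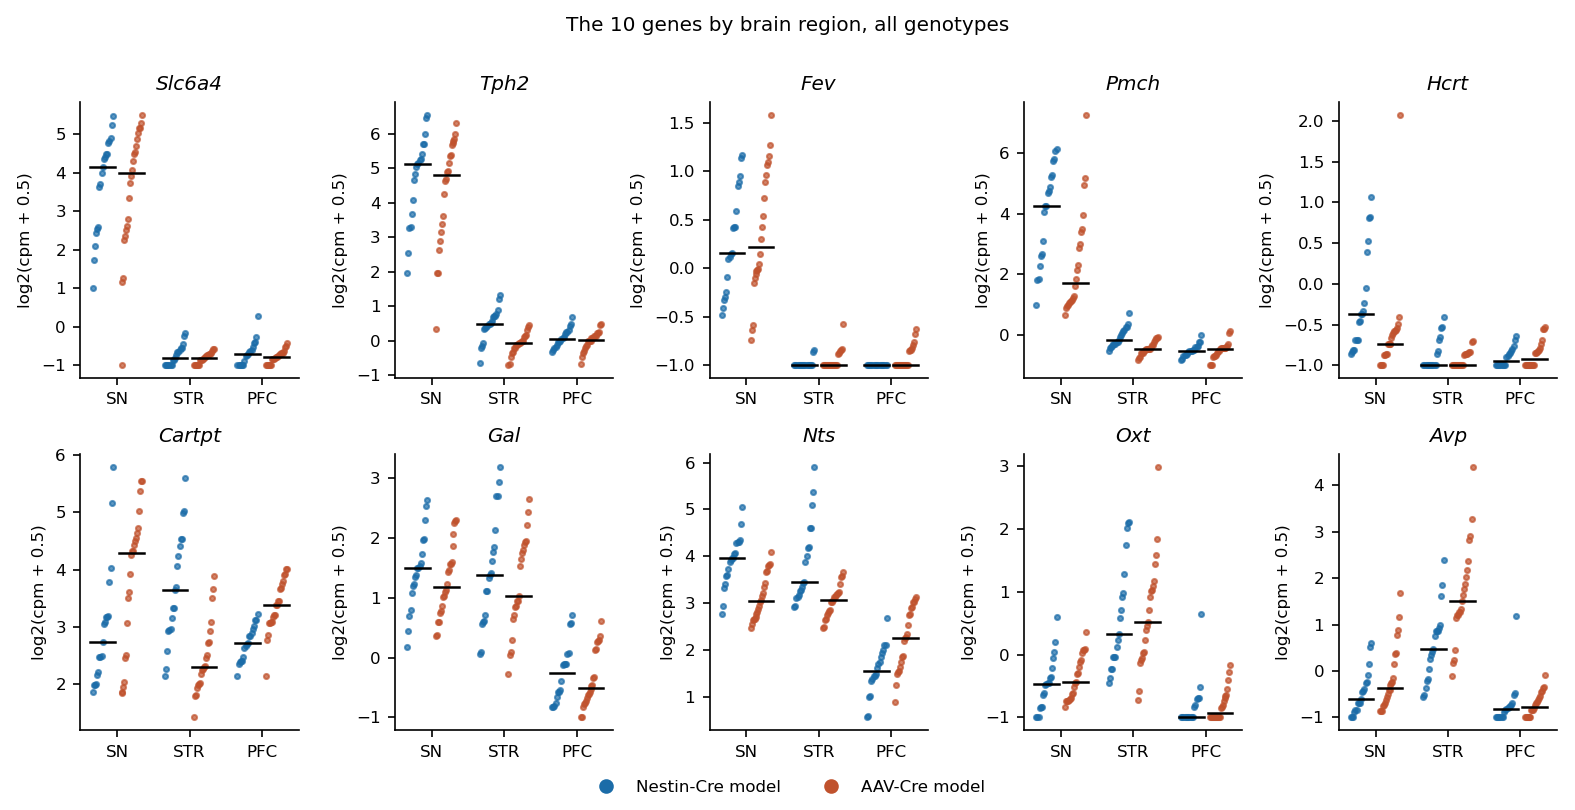
Level of each of the 10 genes in every library, as log2(cpm + 0.5) on the vertical axis, by region on the horizontal axis (SN, substantia nigra; STR, striatum; PFC, prefrontal cortex) and by model in colour, all genotypes together. Points are libraries, spread sideways by rank only, and black bars are medians. Slc6a4, Tph2 and Pmch are high in SN alone, and Fev is read mainly in SN but stays low there (at most 2.5 cpm), while Oxt and Avp are highest in STR.

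Regions were compared by test in WT mice alone. In Nestin-Cre WT, 3 of 7 tested genes were higher in SN than in STR (Slc6a4, Tph2 and Pmch), where 37.8% of all genes were called higher, and 2 were lower (Cartpt and Avp), where 38.3% were called lower. Against PFC, 5 of 7 were higher (Slc6a4, Tph2, Pmch, Gal and Nts; 37.6% of all genes) and 0 lower (41.2% of all genes); at an unadjusted p under 0.05 the same edgeR test gave 5 genes, and DESeq2 called 5. In AAV-Cre WT, 4 of 8 were higher in SN than in STR (Slc6a4, Tph2, Pmch and Cartpt; 39.7% of all genes) and 2 lower (Oxt and Avp; 35.9%). Against PFC, 7 of 8 were higher (all but Oxt; 37.7% of all genes) and 0 lower (36.4%), with 7 genes at an unadjusted p under 0.05 in edgeR and 8 called by DESeq2. A gene that passed the filter mainly through 1 region had to differ between regions, so these counts only describe the tissue.

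The sizes of the regional differences were large for the serotonin enzyme. Tph2 measured 5.3, 20 and 87.7 cpm (lowest, median, highest) in SN and 0.778, 1.04 and 1.8 cpm in STR of Nestin-Cre WT mice, a log2 fold change of 4.77 (SE 0.57, edgeR adjusted p = 1.53e-07). In AAV-Cre WT mice it measured 3.38, 8.42 and 55.0 cpm in SN and 0.121, 0.415 and 0.88 cpm in STR, a log2 fold change of 5.54 (SE 0.67, edgeR adjusted p = 1.42e-07). For Tph2, 6 of 6 and 7 of 7 WT SN libraries lay above every WT STR library. For Pmch the log2 fold changes of SN over STR were 5.14 (SE 0.70) in Nestin-Cre and 4.26 (SE 0.63) in AAV-Cre mice, with edgeR adjusted p of 1.08e-06 and 2.4e-06, and the WT libraries of the regions did not overlap in either model. Cartpt differed in sign between the models, being −0.76 (SE 0.33, edgeR adjusted p = 0.041) in Nestin-Cre and 2.61 (SE 0.42, edgeR adjusted p = 6.85e-06) in AAV-Cre mice; with all genotypes in the fit the Nestin-Cre difference had an adjusted p of 0.16, and over the alternatives the range was 0.0322 to 0.16. For Avp, SN lay below STR by −3.32 (SE 0.72, edgeR adjusted p = 0.00032) in Nestin-Cre and −2.49 (SE 0.61, edgeR adjusted p = 0.000974) in AAV-Cre mice. The call of Avp over PFC in AAV-Cre WT had an edgeR adjusted p of 0.06 and a log2 fold change of 1.97 (SE 0.92), with 1.73 cpm at most in SN.

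The next question is whether GDNF genotype moved these genes in SN. Of the 8 genes tested in each model, 0 were called for HET or HOM against WT in either model by edgeR's quasi-likelihood test at an adjusted p under 0.1, as were 0 of 14873 genes in both Nestin-Cre comparisons (0%) and 0 of 14813 genes in both AAV-Cre comparisons (0%). At an unadjusted p under 0.05, the test gave 0 of these genes for Nestin-Cre HET, 2 for Nestin-Cre HOM, 0 for AAV-Cre HET and 1 for AAV-Cre HOM, beside 1337, 608, 694 and 1109 of all genes. These were Cartpt and Hcrt in Nestin-Cre HOM and Pmch in AAV-Cre HOM, and Hcrt had been favoured by the filter as given below. DESeq2 also called 0 of these genes, and 5, 1, 1 and 10 of all genes. HET and HOM of a model were set against the same WT libraries. A call that is missing does not show that levels were equal, because the spread between mice was wide: within groups the SD on the log2 scale was 1.63 for Pmch, 1.52 for Slc6a4, 1.48 for Tph2 and 1.13 for Cartpt, which ranks 11, 16, 20 and 77 among 14650 genes whose median was 0.2. Smaller spreads were found for Gal (0.64), Fev (0.62) and Nts (0.54). In bulk tissue, fewer cells of a kind and less RNA per cell cannot be told apart.

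Among the serotonin genes, Slc6a4 measured 2.83, 9.10 and 36.9 cpm (lowest, median, highest) in WT, 1.5, 17.4 and 21.7 cpm in HET and 5.35, 24.3 and 43.8 cpm in HOM mice of the Nestin-Cre model. In the AAV-Cre model it measured 1.72, 6.46 and 35.3 cpm in WT, 4.61, 22 and 44.9 cpm in HET and 0, 17.7 and 38.4 cpm in HOM mice. Every group held libraries with little of the transporter and libraries with much, and all 6 ranges overlapped. The log2 fold changes against WT were −0.08 (SE 0.60) and 0.57 (SE 0.62) for Nestin-Cre HET and HOM, and 0.65 (SE 0.71) and 0.55 (SE 0.70) for AAV-Cre HET and HOM. The edgeR adjusted p were 0.958, 0.901, 0.966 and 0.87 in that order, and 5 of 7, 5 of 6, 4 of 7 and 7 of 8 libraries lay above the WT median. With 1 library left out at a time, Slc6a4 ranged from −0.30 (without N_SN_WT_4394) to 0.41 (N_SN_WT_4545), 0.28 (N_SN_HOM_4569) to 1.07 (N_SN_WT_4545), 0.33 (A_SN_HET_3586) to 1.14 (A_SN_WT_3588) and 0.31 (A_SN_HOM_3611) to 1.04 (A_SN_WT_3588). Without the 5 libraries that stand apart, chosen after seeing the data, its estimates were −0.39, 0.36, 0.58 and 0.74. Tph2 showed the same picture, with 5.3, 20 and 87.7 cpm in WT, 3.38, 34.9 and 41.8 cpm in HET and 16.5, 42.6 and 92.8 cpm in HOM mice of the Nestin-Cre model. In AAV-Cre mice it measured 3.38, 8.42 and 55.0 cpm in WT, 5.62, 39.9 and 78.9 cpm in HET and 0.774, 29.5 and 62.6 cpm in HOM. In each of the 4 comparisons most libraries lay above the WT median (5 of 7, 5 of 6, 6 of 7 and 7 of 8), while the highest WT library reached 87.7 of 92.8 cpm in Nestin-Cre and 55.0 of 78.9 cpm in AAV-Cre mice. The Tph2 estimates were −0.30 (SE 0.60), 0.38 (SE 0.62), 0.67 (SE 0.69) and 0.51 (SE 0.67), and leaving out N_SN_WT_4545, the highest WT library, turned the first of them to 0.25. For Nestin-Cre HOM the Tph2 estimate went from 0.04 without N_SN_HOM_4569 to 0.93 without N_SN_WT_4545, and for AAV-Cre HET and HOM single omissions gave 0.33 to 1.09 and 0.27 to 0.93. The Tph2 estimates without the 5 libraries were −0.65, 0.15, 0.64 and 0.72. Fev had estimates between 0.13 and 0.67 and 5 of 7, 5 of 6, 5 of 7 and 6 of 8 libraries above the WT median, with 1.75 cpm as its highest Nestin-Cre and 2.5 cpm as its highest AAV-Cre value. Its estimates also depended on single libraries, with ranges of −0.21 to 0.45, 0.19 to 0.77, 0.32 to 1.11 and 0.30 to 0.93, and were 0.00, 0.26, 0.71 and 0.69 without the 5.

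For the lateral hypothalamic genes, the largest estimate was that of Pmch in AAV-Cre HOM mice. Pmch measured 1.47, 1.95 and 15.1 cpm (lowest, median, highest) in WT, 1.07, 3.08 and 10.8 cpm in HET and 1.46, 6.98 and 154 cpm in HOM mice of this model. The HOM group held 3 libraries above every WT library, at 154 cpm (A_SN_HOM_3687), 35.4 cpm (A_SN_HOM_3606) and 30.2 cpm (A_SN_HOM_3749), and 3 libraries at 1.64 cpm or less. The same 3 high libraries had the highest summed hypothalamic markers of the HOM group, at 780, 740 and 726 cpm against 409 to 874 cpm over all AAV-Cre SN libraries, and the part of this in the Pmch estimate was not tested. In Nestin-Cre SN, high Pmch went with sums at both ends. N_SN_HOM_4580 had 55.3 cpm of Pmch and the highest sum, 973 cpm, while N_SN_WT_4529 had 53.4 cpm and the lowest, 313 cpm. The log2 fold change of HOM against WT was 2.71 (SE 0.91) with an unadjusted p of 0.00678 and an edgeR adjusted p of 0.563; 5 of 8 HOM libraries lay above the WT median. It was 1.38 without A_SN_HOM_3687, 3.43 without A_SN_WT_3677 and, in a setting chosen after seeing the data, 1.23 (edgeR adjusted p = 0.737) without the 5 libraries that stand apart. When SN, STR and PFC shared a fit, which held no mouse block, the edgeR adjusted p was 0.0561. Over the alternatives other than a likelihood ratio test it ranged from 0.0561 to 0.737. In Nestin-Cre SN, Pmch measured 3.01, 5.17 and 53.4 cpm in WT, 1.5, 36.3 and 70.1 cpm in HET and 5.63, 21.8 and 55.3 cpm in HOM. There 6 of 7 HET and 6 of 6 HOM libraries lay above the WT median, but N_SN_WT_4529 reached 53.4 cpm and the ranges overlapped. The estimates were 1.06 (SE 0.76, edgeR adjusted p = 0.559) for HET and 0.59 (SE 0.78, edgeR adjusted p = 0.905) for HOM. Without N_SN_WT_4529 they rose to 1.97 and 1.51, and they were as low as 0.79 without N_SN_HET_4564 and 0.20 without N_SN_HOM_4580. They were 0.86 and 0.42 without the 5 libraries. For AAV-Cre HET the Pmch estimate was −0.12 (SE 0.95), and −0.12 without the 5 libraries as well. Single omissions moved it to −0.55 without A_SN_HET_3688 and turned it to 0.61 without A_SN_WT_3677.

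Hcrt was tested in the Nestin-Cre model alone, where it measured 0.0711, 0.171 and 0.29 cpm in WT, 0.0527, 0.35 and 1.26 cpm in HET and 0.0594, 0.371 and 1.59 cpm in HOM mice. Above the highest WT library lay 4 of 7 HET and 3 of 6 HOM libraries, with 8 to 24 reads each, and 4 of 7 and 5 of 6 lay above the WT median. Its log2 fold changes were 1.55 (SE 0.76, edgeR adjusted p = 0.518) and 1.82 (SE 0.78, unadjusted p = 0.0303, edgeR adjusted p = 0.892), and 1.79 and 1.98 without the 5 libraries that stand apart. The gene passed the filter through 1 HET, 2 HOM and 0 WT libraries, so that a positive estimate was favoured by the filter and these values give no support for a difference. In AAV-Cre SN, Hcrt stayed at or below 0.256 cpm in 21 libraries and reached 3.72 cpm in A_SN_HOM_3687, the library with the highest Pmch. Both genes mark neurons of the lateral hypothalamus, and both peaked in the same mouse of that model.

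Cartpt had its largest estimate in Nestin-Cre HOM mice. It measured 3.13, 6.33 and 8.63 cpm in WT, 3.48, 6.14 and 15.8 cpm in HET and 3.45, 9.15 and 54.9 cpm in HOM. Libraries N_SN_HOM_4627 (54.9 cpm), N_SN_HOM_4580 (35.1 cpm) and N_SN_HOM_4393 (13.2 cpm) lay above every WT library, and the other 3 were inside the WT range. The log2 fold change was 1.62 (SE 0.59) with an unadjusted p of 0.0117 and an edgeR adjusted p of 0.892, and it was 0.95 without N_SN_HOM_4627. In AAV-Cre SN the direction was the opposite, with 3.62, 25.9 and 46.2 cpm in WT, 3.13, 5.22 and 46.0 cpm in HET and 3.09, 19.5 and 23.0 cpm in HOM. The AAV-Cre estimates were −0.87 (SE 0.57, edgeR adjusted p = 0.946) and −0.53 (SE 0.55, edgeR adjusted p = 0.832), and without A_SN_HET_3586 the former was −1.60, while without A_SN_WT_3587 they were −0.65 and −0.31. The Cartpt estimates without the 5 libraries were 0.41 and 1.72 for Nestin-Cre HET and HOM and −0.52 and −0.34 for AAV-Cre. In AAV-Cre mice 1 of 7 HET and 0 of 8 HOM libraries lay above the WT median. Median log2 fold changes over the 6 mammillary markers had the same signs, 0.33 and 0.66 for Nestin-Cre HET and HOM and −0.50 and −0.44 for AAV-Cre (0.52, 0.78, −0.33 and −0.34 without the 5 libraries that stand apart, chosen after seeing the data), and their part in the Cartpt estimates was not tested.

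Genotype estimates of Nts and Gal spanned a narrower range than those of Pmch and Cartpt. In Nestin-Cre SN, Nts measured 6.26, 15.2 and 32.7 cpm in WT, 7.19, 19.2 and 25.4 cpm in HET and 10.2, 13.9 and 16.3 cpm in HOM. In AAV-Cre SN it measured 5.42, 8.75 and 13.5 cpm in WT, 5.05, 6.31 and 12.3 cpm in HET and 5.85, 7.61 and 16.5 cpm in HOM. Libraries above the WT median numbered 4 of 7, 1 of 6, 2 of 7 and 3 of 8. The 4 Nts estimates lay between −0.34 and 0.04, and those of Gal between −0.48 and 0.30. With 1 library left out at a time, Nts ranged from −0.15 to 0.36 and −0.48 to 0.03 in Nestin-Cre HET and HOM. In AAV-Cre HET and HOM it ranged from −0.50 to −0.23 and −0.12 to 0.14, so that its sign held in AAV-Cre HET alone. Single omissions moved Gal to −0.53 and −0.04 in Nestin-Cre HET, −0.75 and −0.30 in AAV-Cre HET and 0.15 and 0.49 in AAV-Cre HOM. Gal had 0.02, 0.26, −0.33 and 0.20 without the 5 libraries, and Nts 0.02, −0.27, −0.30 and −0.16. The sign of the Gal estimate in Nestin-Cre HOM, −0.06, turned to 0.07 without N_SN_HOM_4575 and to 0.26 without N_SN_WT_4394, which had the highest Gal of all SN libraries at 5.74 cpm. Oxt passed the filter in neither SN fit, and Avp passed in the AAV-Cre fit, with estimates of −0.14 (SE 0.75) and −0.81 (SE 0.76). It passed through 3 WT, 1 HET and 0 HOM libraries, which favours a negative HOM estimate, was −1.25 in HET without A_SN_HET_3676, 0.29 in HET and −0.39 in HOM without A_SN_WT_3649, and no longer passed without the 5 libraries that stand apart. The highest Avp in SN, 2.7 cpm, was that of A_SN_HET_3676, the library with the choroid plexus transcripts.

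**Figure D2:**
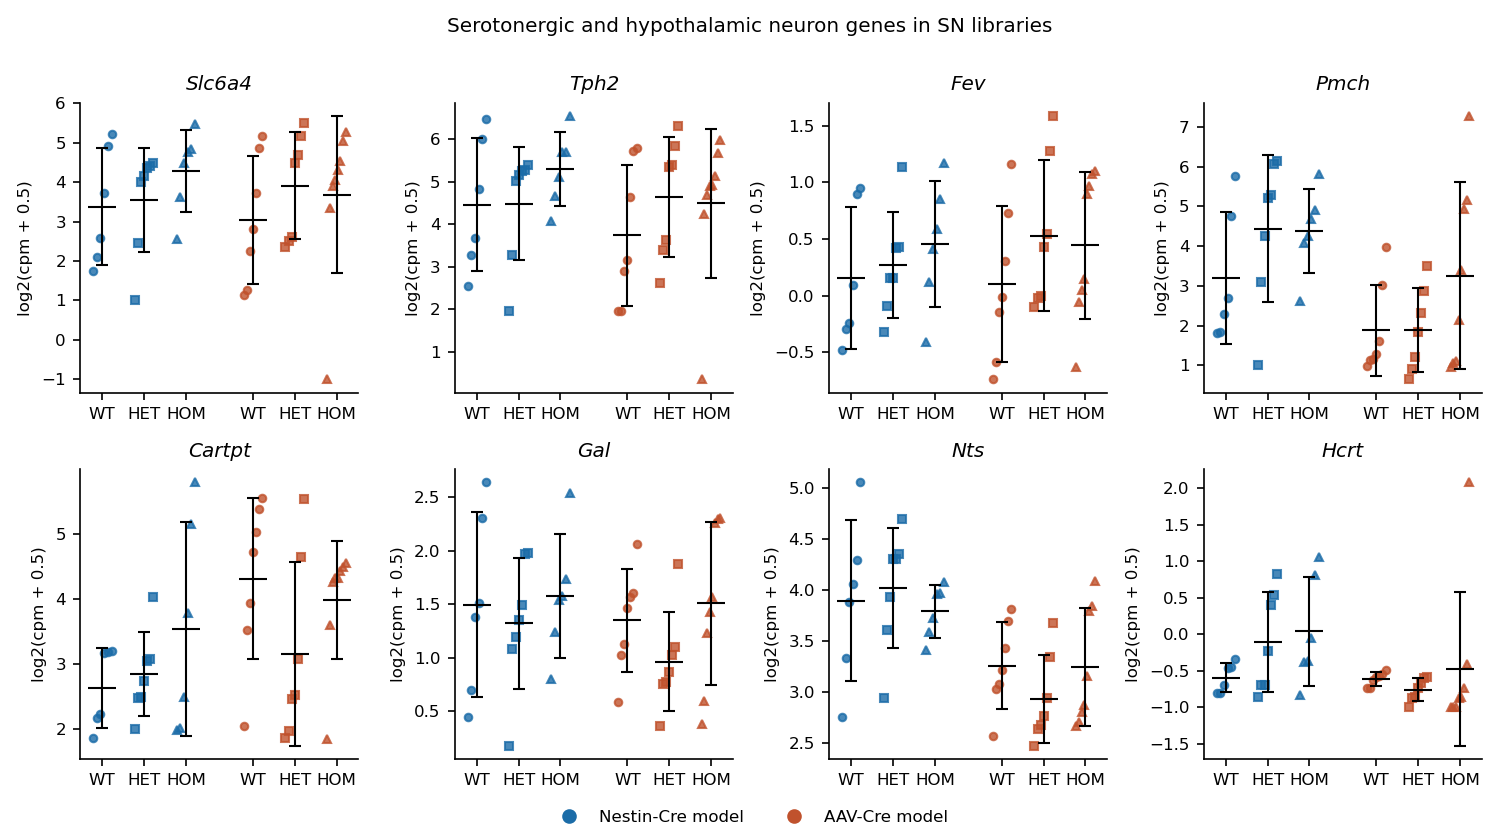
Level of 8 of the genes in each SN library, as log2(cpm + 0.5) on the vertical axis, by genotype (WT, HET, HOM) on the horizontal axis and by model in colour. Points are libraries (1 per mouse), ordered by value within a group, and black marks are the mean ± SD of the group; all genotype groups of a model overlap, and A_SN_HOM_3687 is the lowest point for Slc6a4 and Tph2 and the highest for Pmch and Hcrt.

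Whether the genotype effects differed between models was tested directly, in all SN libraries together. Of 9 genes tested, 0 were called for HET or HOM by edgeR, as were 0 of 15108 genes for HET (0%) and 0 for HOM (0%). At an unadjusted p under 0.05 the test gave 0 of the 9 genes for HET and 2 for HOM (Cartpt and Avp), beside 2120 and 501 of all genes, and DESeq2 called 0 of the 9 genes and 16 and 0 of all genes. For Cartpt the HOM effect in Nestin-Cre exceeded that in AAV-Cre by 2.15 on the log2 scale (SE 0.85, edgeR adjusted p = 0.986). The Avp contrast carries the filter's preference for WT libraries in AAV-Cre SN and is given no weight. For Pmch the difference was −2.13 (SE 1.24, edgeR adjusted p = 0.986). These contrasts were not refitted without single libraries or without the 5 that stand apart. Within its model, the HOM estimate of Pmch in AAV-Cre went from 2.71 to 1.38 without A_SN_HOM_3687. That of Cartpt in Nestin-Cre HOM went from 1.62 to 0.95 without N_SN_HOM_4627.

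In the reference regions genotype gave no call among these genes either. In STR, 0 of 6 genes were called in each Nestin-Cre and 0 of 5 in each AAV-Cre comparison by edgeR, and 0 of 14494 (0%) and 0 of 14655 genes (0%) were called in all. At an unadjusted p under 0.05 there were 3 and 0 of these genes for Nestin-Cre HET and HOM and 0 and 1 for AAV-Cre, beside 2513, 670, 251 and 671 of all genes, while DESeq2 called 0 of them and 535, 1, 0 and 5 of all genes. The 3 genes were Oxt, Cartpt and Nts in Nestin-Cre HET, with log2 fold changes of 1.64 (SE 0.58), 1.2 (SE 0.46) and 0.93 (SE 0.42) and edgeR adjusted p of 0.205, 0.226 and 0.269, and 5, 6 and 4 of 7 libraries lay above the WT median. Cartpt in that comparison measured 4.29, 7.23 and 22.6 cpm (lowest, median, highest) in WT and 7.15, 20.8 and 47.8 cpm in HET, which overlap. In AAV-Cre STR, Cartpt of HOM mice gave 0.99 (SE 0.31, edgeR adjusted p = 0.973), with 7 of 7 libraries above the WT median. In PFC, 0 of 2 genes (Cartpt and Nts) were called in any comparison by edgeR, where the background was 0% for Nestin-Cre HET, 0.25% for Nestin-Cre HOM, 0% for AAV-Cre HET and 0.0137% for AAV-Cre HOM. At an unadjusted p under 0.05 there was 1, Nts in Nestin-Cre HOM (−0.84, SE 0.35, edgeR adjusted p = 0.412; −1.51 without N_PFC_HOM_4569 and −0.62 without N_PFC_HOM_4580), beside 1398, 1446, 1806 and 2074 of all genes, and DESeq2 called 0 of the 2 genes and 116, 227, 6 and 184 of all genes.

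The levels of these genes were not independent of one another from mouse to mouse. For 7 genes that passed the filter in both SN fits, correlations over the 41 SN libraries were computed on log2(cpm + 0.5) after the mean of each model and genotype had been removed. Of the 21 pairs, 16 had a two-sided permutation p under 0.1 after Benjamini-Hochberg adjustment, 7 positive and 9 negative, and Spearman's rho gave 16 as well. The smallest r among the 16 was 0.38 in size, and 24.8% of all pairs of the 14650 genes that passed both SN filters reached it (13.1% positive, 11.7% negative), as did 32.7% of pairs among the 779 genes that varied at least as much as the least variable of the 7 (31.2% and 1.42%). This background was added after seeing the data. Correlation alone was thus common in these libraries, and a pair that passes is a description of shared variation. Without the 5 libraries that stand apart the number was 13, a comparison chosen after seeing the data, and without A_SN_HOM_3687 alone it was 16. Within the Nestin-Cre libraries 14 pairs passed and within the AAV-Cre libraries 10.

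Serotonin genes formed the tightest group. Slc6a4 and Tph2 had r = 0.99 and rho = 0.99 (n = 41, permutation p = 1e-05 for each, the smallest that 100000 permutations can give; adjusted p = 5.25e-05 for each), and r was 0.99 without the 2 libraries farthest from the median, within Nestin-Cre and within AAV-Cre. Slc6a4 and Fev had r = 0.80 and rho = 0.86 (permutation p = 1e-05, adjusted p = 5.25e-05 for both), 0.81 without the 2 farthest libraries, 0.71 within Nestin-Cre and 0.85 within AAV-Cre. Tph2 and Fev had r = 0.79 and rho = 0.82 (permutation p = 1e-05, adjusted p = 5.25e-05 for both), 0.79 without the 2 farthest libraries, 0.66 within Nestin-Cre and 0.86 within AAV-Cre. The transporter, the synthesis enzyme and the transcription factor were thus high in the same mice. No other pair of the 14650 genes reached the r of Slc6a4 and Tph2. For example, Tph2 and Slc6a4 were both highest or next to highest in N_SN_HOM_4569, at 92.8 and 43.8 cpm, and both lowest in A_SN_HOM_3687, at 0.774 and 0 cpm.

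Against Pmch the serotonin genes ran in the opposite direction. Tph2 and Pmch had r = −0.60 (permutation p = 0.0001, adjusted p = 0.00035) and rho = −0.56 (permutation p = 0.00024, adjusted p = 0.00084; n = 41), and r was −0.48 without the 2 farthest libraries, −0.49 within Nestin-Cre and −0.67 within AAV-Cre. Slc6a4 and Pmch had r = −0.62 (permutation p = 9e-05, adjusted p = 0.00035) and rho = −0.59 (permutation p = 9e-05, adjusted p = 0.000378), with −0.48 without the 2 farthest libraries, −0.53 within Nestin-Cre and −0.68 within AAV-Cre. Fev and Pmch had r = −0.57 (permutation p = 0.00026, adjusted p = 0.00078) and rho = −0.52 (permutation p = 0.00128, adjusted p = 0.00244), with −0.60 without the 2 farthest libraries, −0.53 within Nestin-Cre and −0.59 within AAV-Cre. An r of the size between Tph2 and Pmch was reached by 6.87% of all pairs, and among the 779 variable genes by 16.1% of pairs with a positive and 0.0505% with a negative sign. Mice rich in serotonin transcripts tended to be poor in Pmch, with exceptions such as N_SN_HOM_4569, where Pmch was 29.4 cpm beside the highest Tph2. Negative relations of the 3 serotonin genes with Gal (r from −0.49 to −0.41) and Nts (r from −0.48 to −0.38) passed in the pooled libraries (adjusted p from 0.00403 to 0.0267 for r and from 0.0024 to 0.0386 for rho) and within Nestin-Cre, but in AAV-Cre they had r from −0.36 to −0.19 and none passed. Those of Slc6a4 and Tph2 with Gal and of Fev with Nts were also lost without the 5 libraries that stand apart, at adjusted p of 0.136, 0.129 and 0.129.

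Peptide genes went together in part. Pmch and Nts had r = 0.78 and rho = 0.76 (permutation p = 1e-05, adjusted p = 5.25e-05 for both; n = 41), with 0.75 without the 2 farthest libraries, 0.84 within Nestin-Cre and 0.72 within AAV-Cre; 1.03% of all pairs and 6.37% of the variable ones reached this size. Gal and Nts had r = 0.57 (permutation p = 0.00088, adjusted p = 0.0022) and rho = 0.57 (permutation p = 0.00074, adjusted p = 0.00194), with 0.56 without the 2 farthest libraries. Gal and Pmch had r = 0.56 (permutation p = 0.00105, adjusted p = 0.0022) and rho = 0.54 (permutation p = 0.00122, adjusted p = 0.00244), with 0.53 without the 2 farthest. Galanin thus went with both of the other peptides, but within Nestin-Cre these relations did not pass, at r = 0.46 (adjusted p = 0.126) and 0.44 (adjusted p = 0.12), against 0.71 and 0.68 within AAV-Cre. Gal and Cartpt had r = 0.47 (permutation p = 0.00096, adjusted p = 0.0022) and rho = 0.52 (permutation p = 0.00069, adjusted p = 0.00194), with 0.50 without the 2 farthest and 0.47 within each model. Cartpt was unlike the other peptide genes: its r with Pmch was 0.00, with Nts 0.07 and with the serotonin genes 0.09 to 0.13, and their adjusted p were 0.56 or higher.

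**Figure D3:**
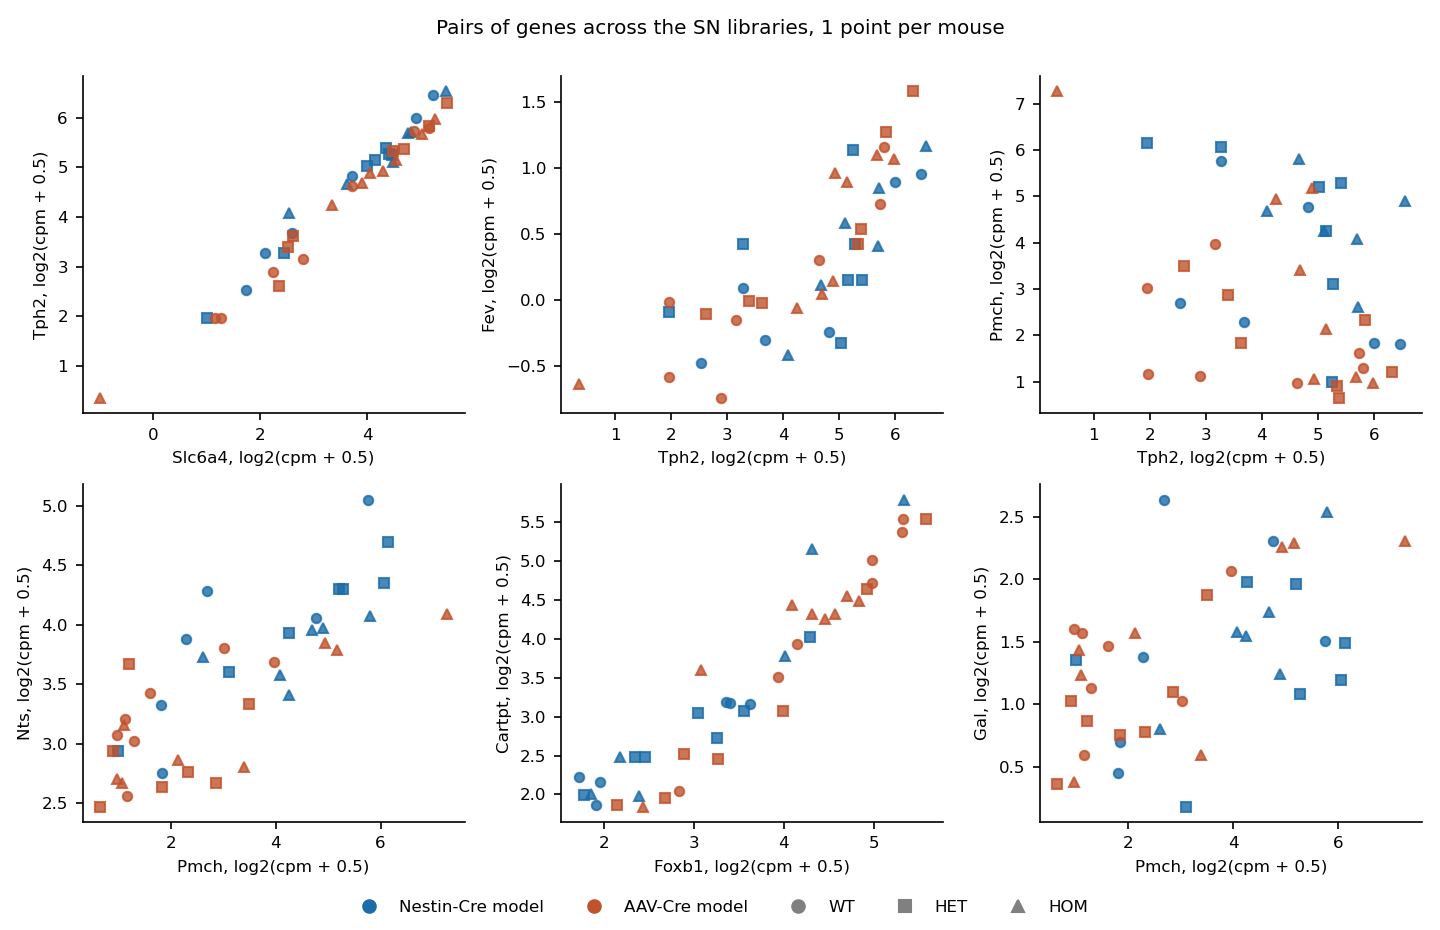
Pairs of genes across the 41 SN libraries, both axes as log2(cpm + 0.5), with model in colour and genotype by marker shape; each point is 1 mouse. Slc6a4 and Tph2 fall on a line (r = 0.99), Pmch falls as Tph2 rises (r = −0.60), and Cartpt follows Foxb1 (r = 0.95) more tightly than Gal follows Pmch (r = 0.56), with r computed after group means had been removed.

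To see what else varied in the same way, each gene was set against the 14649 other genes that passed both SN filters, and genes among the 5 with the highest r are named as a description (n = 41 libraries, which share dissection and depth). After one another, the serotonin genes were most like Gchfr, the regulator of the enzyme that makes the cofactor for serotonin and dopamine synthesis (r = 0.85 with Slc6a4, 0.86 with Tph2 and 0.73 with Fev), and Slc22a3, an organic cation transporter, was also among the 5 (0.64, 0.63 and 0.65). Pmch was most like Nts (0.78), 1110032F04Rik (0.72), the substance P precursor Tac1 (0.66), Adam21 (0.63) and Usp43 (0.63). Nts was most like 1110032F04Rik (0.87), then Pmch (0.78), Lbhd2 (0.68), Fbxo25 (0.67) and F2rl2 (0.67). Cartpt was most like Foxb1, a forkhead gene of the mammillary body (0.95), Rprm (0.94), B230323A14Rik (0.93), Myh8 (0.92) and Slitrk6 (0.91). Genes like Gal included Avil (0.79), the hypothalamic homeobox gene Bsx (0.78), Tac1 (0.78) and Barhl2 (0.77).

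Other markers of the same neurons and of their neighbours were followed as 18 lists. By genotype in SN, edgeR called 0 of 111 list genes tested in each Nestin-Cre comparison and 0 of 108 in each AAV-Cre comparison. At an unadjusted p under 0.05 there were 11 and 10 list genes for Nestin-Cre HET and HOM and 12 and 9 for AAV-Cre HET and HOM, and DESeq2 called 0 in each. As shares these are 9.91%, 9.01%, 11.1% and 8.33% of list genes, beside 8.99%, 4.09%, 4.69% and 7.49% of all genes in the same fits. With all libraries in, the first and last thus lie near the background. Without the 5 libraries that stand apart, chosen after seeing the data, each list held 0 such genes in AAV-Cre HET, beside 2.42% of all genes. Counts in Nestin-Cre HET, Nestin-Cre HOM and AAV-Cre HOM then rose in some lists and fell in others, beside 9.56%, 5.70% and 7.4% of all genes. Of 13 further serotonergic genes, 13 passed both SN filters, and the most abundant were Slc18a2 (mean 518 ± 109 cpm, SD, n = 41), Ddc (513 ± 112 cpm) and Hcn2 (219 ± 47.6 cpm). Slc18a2 and Ddc, which load and make monoamines, are also on the dopaminergic list, together with En1 and Lmx1b. The serotonergic list had median log2 fold changes of 0.18 and 0.04 for Nestin-Cre HET and HOM and 0.14 and 0.14 for AAV-Cre HET and HOM, where the medians of all genes tested were 0.00, 0.00, 0.00 and 0.01.

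Of 28 hypothalamic genes, 18 passed both filters and 7 stayed under 1 cpm in every SN library. Hap1 (375 ± 87.9 cpm), Irs4 (34.0 ± 11.6 cpm) and Hdc (26.4 ± 26.3 cpm) were the most abundant. Hdc, the enzyme that makes histamine in the tuberomammillary hypothalamus, ranged from 0.854 to 111 cpm. The highest hypothalamic sum, 973 cpm, was that of N_SN_HOM_4580, which also had the highest Hdc, Gal at 5.32 cpm and Pmch at 55.3 cpm. The lowest sum, 313 cpm, was that of N_SN_WT_4529, where Pmch was 53.4 cpm. Median log2 fold changes of the list were 0.10 and 0.43 for Nestin-Cre HET and HOM and −0.32 and −0.01 for AAV-Cre, and 0.22, 0.58, −0.28 and −0.09 without the 5 libraries that stand apart. In the same order, 1, 1, 1 and 1 of 18 genes had an unadjusted edgeR p under 0.05, beside 8.99%, 4.09%, 4.69% and 7.49% of all genes. Without the 5 libraries there were 3, 4, 0 and 2, beside 9.56%, 5.70%, 2.42% and 7.40%, and 0 were called.

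Receptors for the encoded peptides were present for most ligands. Of 13 receptor genes, 9 passed both SN filters. Sort1 (349 ± 56.9 cpm), Ntsr2 (269 ± 65.8 cpm) and Ntsr1 (75.9 ± 22.9 cpm), all of which bind neurotensin, were the most abundant. The vasopressin receptor gene Avpr2 was at 0 in all 41 libraries, and Galr2, Galr3 and Avpr1b stayed at or below 0.404 cpm. Mchr1, the receptor of melanin-concentrating hormone, ranged from 8.18 to 19.0 cpm, and the orexin receptor genes Hcrtr1 and Hcrtr2 from 9.08 to 24.9 and 5.62 to 23.3 cpm. All 9 genes that cut, amidate or package peptides passed, with Cpe (2630 ± 368 cpm), Scg2 (885 ± 124 cpm) and Pcsk1n (384 ± 165 cpm) at the top. Median log2 fold changes for Nestin-Cre HET, Nestin-Cre HOM, AAV-Cre HET and AAV-Cre HOM were 0.31, 0.24, −0.06 and 0.00 for receptors and −0.02, 0.14, −0.11 and −0.03 for these processing genes.

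Neighbouring nuclei were tracked by their own lists, whose median log2 fold changes, where printed, are in the order Nestin-Cre HET, Nestin-Cre HOM, AAV-Cre HET and AAV-Cre HOM. Dopaminergic markers, which define the labelled tissue, were present in every SN library: Slc6a3 ranged from 548 to 2180 cpm (1250 ± 295 cpm), Aldh1a1 averaged 752 ± 183 cpm and Th ranged from 329 to 1100 cpm (634 ± 144 cpm), and 17 of 17 genes of the list passed. Its medians were 0.16, −0.16, 0.18 and −0.01. Mammillary genes (6 of 6 passing) were led by Tac1 (45.8 ± 18.3 cpm), Foxb1 (15.4 ± 12.1 cpm) and Nkx2-1 (8.75 ± 7.10 cpm), and their sum was highest, at 172 cpm, in A_SN_WT_3677, where Cartpt was 41.1 cpm. Subthalamic genes that passed included Lmx1a (12.6 ± 4.15 cpm) and Barhl1 (7.16 ± 3.80 cpm), and single genes stand here in place of a median: Lmx1a had log2 fold changes of 0.51, 0.33, 0.00 and 0.06 (0.79, 0.53, −0.16 and −0.08 without the 5 libraries that stand apart), Barhl1 0.55, 1.10, −0.48 and 0.50 (0.74, 1.25, −0.12 and 0.71) and Barhl2 0.53, 0.48, −0.45 and 0.32 (0.88, 0.80, −0.38 and 0.11), with 0 calls in either set. Of the 4 subthalamic genes, 0, 1, 0 and 0 had an unadjusted edgeR p under 0.05, beside 8.99%, 4.09%, 4.69% and 7.49% of all genes. Without the 5 libraries there were 3, 1, 0 and 1, beside 9.56%, 5.70%, 2.42% and 7.40%. The Edinger-Westphal nucleus, a midbrain source of CART peptide, was tracked by Cck (33.5 ± 15.6 cpm), Cartpt and Ucn. Ucn, its defining gene, was at 0 in 23 libraries and did not exceed 0.435 cpm in any. Cck and Cartpt, the 2 genes of that list that passed, had medians of −0.08, 0.93, −0.51 and −0.28. Of the noradrenergic genes, Slc6a2 was at 0 in 19 and Dbh in 23 of 41 libraries, neither passed the filter, and both were highest in N_SN_WT_4394, at 3.12 and 2.4 cpm.

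The remaining lists cover other nuclei and tissues; the genes passing both SN filters are counted first, while each median is over all genes tested in its own fit. Of the red and interpeduncular nucleus genes 5 of 5 passed, led by Calb2 (274 ± 47.0 cpm), Irx2 (24.4 ± 18.4 cpm) and Chrna5 (9.29 ± 3.11 cpm), with medians in the same order of −0.21, 0.07, −0.01 and 0.33. Thalamic genes (5 of 6; 6 tested in Nestin-Cre and 5 in AAV-Cre) were led by Slc17a6 (262 ± 74.2 cpm), Rora (76.6 ± 8.92 cpm) and Tcf7l2 (26.7 ± 14.2 cpm), with medians of −0.02, −0.29, 0.25 and 0.09. Pituitary genes (1 of 7) stayed low, with Pomc at 2.05 ± 1.81 cpm, Gh at 0.193 ± 0.367 cpm and Cga at 0.109 ± 0.248 cpm, and Pomc, the gene tested, had log2 fold changes of −0.42, −0.02, 0.02 and 0.67. Choroid plexus genes (4 of 7; 6 and 4 tested) were led by Ttr (530 ± 3120 cpm, highest 20000 cpm in A_SN_HET_3676), Kl (22.4 ± 87.1 cpm) and Prlr (18.7 ± 29.4 cpm), with medians of 0.01, −0.47, 3.03 and −0.14. Ependymal genes (3 of 6; 3 and 4 tested) were led by Col25a1 (146 ± 31.3 cpm), Foxj1 (11.1 ± 3.99 cpm) and Rarres2 (7.94 ± 3.09 cpm), with medians of −0.13, −0.10, 0.32 and 0.02. Striatal genes (8 of 8) were led by Penk (90.6 ± 54.9 cpm), Drd2 (64.9 ± 20.5 cpm) and Ppp1r1b (62.7 ± 60.6 cpm), with medians of 1.13, −0.03, −0.79 and −0.69 and 4, 0, 5 and 5 genes at an unadjusted p under 0.05 (50%, 0%, 62.5% and 62.5%, beside 8.99%, 4.09%, 4.69% and 7.49% of all genes). Cortical genes (4 of 6; 5 and 4 tested) were led by Rasgrf2 (154 ± 26.0 cpm), Slc17a7 (71.3 ± 79.5 cpm) and Cux2 (38.3 ± 12.3 cpm), with medians of −0.14, 0.32, −0.16 and −0.03. Myelin genes that passed included Mbp (10400 ± 2010 cpm) and Cnp (1050 ± 243 cpm), and they too are given singly. In Nestin-Cre HET and HOM, Cnp had −0.34 and −0.40 (unadjusted p = 0.0175 and 0.00875), Mal −0.43 and −0.50, Mog −0.44 and −0.39, Mobp −0.23 and −0.30, Mbp −0.15 and −0.25, Mag −0.22 and −0.26 and Opalin −0.44 and −0.45, with 3 and 4 of these 7 genes at an unadjusted p under 0.05 (8.99% and 4.09% of all genes) and 0 called. Without the 5 libraries these estimates grew, to −0.44 and −0.50 for Cnp (unadjusted p = 0.00287 and 0.00104), −0.52 and −0.58 for Mal, −0.53 and −0.46 for Mog, −0.29 and −0.38 for Mobp, −0.22 and −0.35 for Mbp, −0.29 and −0.36 for Mag and −0.58 and −0.55 for Opalin. Then 4 and 7 of the 7 genes had an unadjusted p under 0.05 (9.56% and 5.70% of all genes), with edgeR adjusted p of 0.492 or higher for HET and 0.75 or higher for HOM. In AAV-Cre HET and HOM, Cnp had 0.13 and 0.05, and 0.11 and 0.01 without the 5 libraries. Blood genes (1 of 4 found of 5) were led by Alas2 (6.62 ± 3.37 cpm), with Hba-a2 at 0.0757 ± 0.0806 cpm and Hba-a1 at 0, and medians of −0.28, −0.32, 0.32 and 0.15. Several of these medians rest on single libraries. Without the 5 libraries that stand apart, a comparison chosen after seeing the data, they were 0.25, 0.05, −0.29 and −0.16 for striatal genes (2, 1, 0 and 0 of 8 genes at an unadjusted p under 0.05, beside 9.56%, 5.70%, 2.42% and 7.40% of all genes), 0.23, −0.01, 0.15 and −0.11 for choroid plexus (5 and 4 genes tested), −0.18, −0.19, 0.04 and 0.19 for ependyma (3 in each model), 0.38, 0.35, −0.04 and 0.04 for cortex, 0.07, −0.33, 0.12 and 0.03 for thalamus, −0.11, 0.11, 0.05 and 0.60 for the red and interpeduncular nuclei, −0.46, −0.05, 0.09 and 0.74 for Pomc, and 0.25, 0.18, 0.42 and 0.32 for blood. Of the earlier lists, dopaminergic genes then had 0.14, −0.21, 0.11 and −0.04, serotonergic 0.13, 0.10, 0.11 and 0.07, receptors 0.28, 0.28, −0.01 and −0.01, peptide processing 0.04, 0.10, −0.06 and −0.04, and the 2 Edinger-Westphal genes 0.05, 1.07, −0.31 and −0.18. The part of these tissues in the levels of the 10 genes was not tested.

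The 10 genes lie on 6 chromosomes in the mm10 build. Oxt (chromosome 2, 130576169 to 130577053, plus strand) and Avp (chromosome 2, 130580620 to 130582588, minus strand) are neighbours, and Tph2 (chromosome 10, 115078641 to 115185022, minus strand), Pmch (chromosome 10, 88091072 to 88092374, plus strand) and Nts (chromosome 10, 102481756 to 102490418, minus strand) share a chromosome but lie megabases apart. Slc6a4 is on chromosome 11 (76998597 to 77032343, plus strand), as is Hcrt (100761693 to 100762931, minus strand). Fev (chromosome 1, 74881509 to 74885408, minus strand), Cartpt (chromosome 13, 99898483 to 99900683, minus strand) and Gal (chromosome 19, 3409915 to 3414544, minus strand) stand alone. The serotonin genes that moved together from mouse to mouse thus lie on 3 different chromosomes.

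RefSeq promoters (build GRCm38.p6, from 250 bases before to 50 after the start) were found for 10 of 10 genes. Those of the serotonin genes are printed because these genes moved together. Both strands were searched for CGGAA, a core that ETS-family factors such as Fev can bind, and for TATAAA; capitals mark a match. The Slc6a4 promoter (chr11:76998347-76998646, plus strand, 67.7% GC) held neither, the Tph2 promoter (chr10:115184973-115185272, minus strand, 47.3% GC) held 1 TATAAA, and the Fev promoter (chr1:74885359-74885658, minus strand, 69.0% GC) held 1 CGGAA. Among 32851 promoters of the same length, 29.9% held CGGAA and 13.6% held TATAAA; of the 10 genes, 3 held CGGAA (Fev, Hcrt and Gal) and 3 held TATAAA (Tph2, Pmch and Hcrt).
Slc6a4: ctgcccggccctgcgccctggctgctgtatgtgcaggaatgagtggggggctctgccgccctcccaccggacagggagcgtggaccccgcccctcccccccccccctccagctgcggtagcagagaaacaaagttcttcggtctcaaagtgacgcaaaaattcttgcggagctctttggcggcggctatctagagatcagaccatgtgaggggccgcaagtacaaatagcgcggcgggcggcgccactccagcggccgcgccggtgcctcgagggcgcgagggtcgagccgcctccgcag
Tph2: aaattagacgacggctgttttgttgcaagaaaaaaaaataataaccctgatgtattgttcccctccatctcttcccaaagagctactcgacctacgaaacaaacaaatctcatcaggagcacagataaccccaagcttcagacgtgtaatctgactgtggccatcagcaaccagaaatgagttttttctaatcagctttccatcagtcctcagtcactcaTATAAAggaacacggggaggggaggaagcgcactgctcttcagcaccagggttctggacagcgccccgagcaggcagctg
Fev: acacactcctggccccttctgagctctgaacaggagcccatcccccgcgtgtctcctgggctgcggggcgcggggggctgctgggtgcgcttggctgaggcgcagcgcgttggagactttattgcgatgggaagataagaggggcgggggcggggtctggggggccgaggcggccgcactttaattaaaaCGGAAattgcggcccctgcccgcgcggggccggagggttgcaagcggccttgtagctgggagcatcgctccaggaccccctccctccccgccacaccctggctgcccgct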

How the data were processed

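RNA had been sequenced as 75 bp single-end reads from poly(A)-selected, stranded libraries. Per the submitters' processing notes, bcl2fastq 2.20.0.422, STAR 2.5.2b, featureCounts 1.5.1 and the mm10 build were used; the values the authors deposited are raw counts per gene, used as deposited. The 10 genes and the 18 gene lists (145 genes) were chosen with earlier results of these data known.

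A gene entered a fit when 3 or more of its libraries reached 1 cpm (14873 in Nestin-Cre SN, 14813 in AAV-Cre SN; 8 of the 10 genes in each, 7 in both). edgeR 4.0.16 (R 4.3.3) was run with TMM normalization, trended dispersion and quasi-likelihood F tests, two-sided, in 1 fit per model and region, with Benjamini-Hochberg adjustment over all genes and a threshold of 0.1. The SE of a log2 fold change was taken as its size divided by the square root of F. Regions were compared in WT mice, and the models by a model by genotype contrast. Correlations used log2(cpm + 0.5), group means removed, and 100000 permutations within groups (numpy 2.4.6, scipy 1.17.1, pandas 2.3.3). DESeq2 1.42.0, a likelihood ratio test and other alternatives were also run. The limit that a count of 0 allows was taken as 3 counts of the library total and covers counting error only.

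Named genes were the 10 genes, Gdnf, the 3 genes of each list with the highest mean in SN, any list gene called in SN, and the 5 genes most like each member, of which not all are printed; others named were chosen after their values were seen. Libraries sharing a mouse number come from 1 animal by their labels. Deviations from group means of the same mouse in different regions had a median r from 0.18 to 0.28, against about 0 for different mice. Of 354 pairs of libraries within groups, 0 held identical values, and all differed by more than sampling noise (chi-square per gene at least 4.66).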

Additional observations from a re-analysis of the deposited data

Results flagged for a closer look

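Single libraries lying far from the rest of their group were looked for in 100 combinations of gene and group of 4 to 10 libraries, and 12 were found; chance alone gives about 1 in 20. Of these, 6 were in SN, 3 in STR and 3 in PFC.

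In AAV-Cre SN, A_SN_HOM_3687 was far from the other 7 in 3 genes. Slc6a4 was 0 cpm where the others lay between 9.66 and 38.4 cpm, Tph2 was 0.774 cpm where they lay between 18.5 and 62.6 cpm, and Hcrt was 3.72 cpm where none exceeded 0.256 cpm. In the same group Cartpt of A_SN_HOM_3570 was 3.09 cpm, below the 11.7 to 23.0 cpm of the others. Avp of A_SN_HET_3676 was 2.7 cpm, above the 0.0528 to 0.616 cpm of the others; that library also held the choroid plexus transcripts. Oxt of N_SN_WT_4394 was 1.02 cpm, where the others did not exceed 0.231 cpm.

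In STR, A_STR_HOM_3570 had 7.44 cpm of Oxt and 20.5 cpm of Avp, where the other 6 libraries did not exceed 1.38 and 2.88 cpm. Cartpt of N_STR_HOM_4393 was 3.95 cpm, below the 12.0 to 22.8 cpm of the others. In PFC, N_PFC_HOM_4393 of the same mouse had 1.07 cpm of Oxt and 1.79 cpm of Avp, where the other 3 HOM libraries were at 0 for both. Nts of A_PFC_WT_3578 was 1.35 cpm, below the 4.10 to 7.61 cpm of the others. The neighbouring genes Oxt and Avp were thus high together in both libraries.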

How the results depend on the processing

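Calls of the 10 genes by genotype stayed at 0 with DESeq2, DESeq2 size factors in edgeR, no filter, only the 2 genotypes compared, an adjusted p under 0.05, without the mouse of N_SN_HOM_4575, in refits leaving out each of the 41 SN and 4 Nestin-Cre PFC HOM libraries in turn (no STR or AAV-Cre PFC library was left out), and, chosen after seeing the data, without the 5 SN libraries that stand apart. The contrast between models was not refitted in these omissions. When the 3 regions of a model shared a fit, 1 gene (Pmch, AAV-Cre SN HOM) was called. That fit held no mouse block, and AAV-Cre libraries of the same mouse in different regions had a median r from 0.18 to 0.26. The likelihood ratio test, which gives each gene the trended dispersion and not its own spread, called 2 and 3 genes for Nestin-Cre SN HET and HOM, 3 and 4 for AAV-Cre SN, 4 and 1 for Nestin-Cre STR, 2 for AAV-Cre STR HOM, 1 for Nestin-Cre PFC HOM, and 5 and 3 for the difference between models. Without the filter, 8 of 10 genes were called for SN against STR and 8 against PFC in Nestin-Cre WT, where more genes were tested. With the mouse number as replicate block, the counts in WT were 5 and 5 (Nestin-Cre) and 6 and 7 (AAV-Cre), and the block changed no call. Cartpt of Nestin-Cre SN against STR lost its call with all genotypes in the fit (0.16), and Oxt of AAV-Cre SN against PFC gained one with DESeq2 (0.0887).

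Calls over all genes moved more, from 0 in every genotype comparison except Nestin-Cre PFC HOM (36) and AAV-Cre PFC HOM (2). The likelihood ratio test gave, for HET and HOM, 332 and 119 (Nestin-Cre SN), 324 and 218 (AAV-Cre SN), 1242 and 277 (Nestin-Cre STR), 56 and 175 (AAV-Cre STR), 415 and 310 (Nestin-Cre PFC), 248 and 429 (AAV-Cre PFC) and 689 and 162 (difference between models). DESeq2 gave 5 and 1, 1 and 10, 535 and 1, 0 and 5, 116 and 227, 6 and 184, and 16 and 0 in the same order. The shared fit of 3 regions gave 3 for Nestin-Cre SN HOM, 22 and 13 for AAV-Cre SN, 1082 for Nestin-Cre STR HET, 4 for AAV-Cre STR HOM, 0 for Nestin-Cre PFC HOM and 193 and 460 for AAV-Cre PFC. Without the filter there were 2 for Nestin-Cre SN HOM and 1 each for AAV-Cre SN HOM and STR HOM. Only the 2 genotypes gave 8 for Nestin-Cre STR HET, 39 and 5 for Nestin-Cre PFC and 1 for AAV-Cre PFC HET. Nestin-Cre PFC HOM had 55 with DESeq2 size factors and 11 at 0.05, AAV-Cre PFC HOM 1 at 0.05, Nestin-Cre PFC HET 91 without N_PFC_WT_4575, and Nestin-Cre SN HOM 1 without the 5 libraries. Leaving out 1 library gave 0 to 1 for Nestin-Cre SN HET and HOM, 0 to 3 for AAV-Cre SN HOM, 0 to 54 for Nestin-Cre PFC HET and 1 to 122 for HOM. The causes were not tested.

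Signs that turned belonged to estimates without a call. Leaving out 1 library gave ranges of −0.30 to 0.41 (Slc6a4), −0.53 to 0.25 (Tph2), −0.21 to 0.45 (Fev), −0.07 to 0.37 (Cartpt) and −0.15 to 0.36 (Nts) for Nestin-Cre SN HET, −0.38 to 0.26 (Gal) and −0.48 to 0.03 (Nts) for Nestin-Cre SN HOM, −0.55 to 0.61 (Pmch) and −1.25 to 0.29 (Avp) for AAV-Cre SN HET, −0.12 to 0.14 (Nts) for AAV-Cre SN HOM and −0.19 to 0.06 (Cartpt) for Nestin-Cre PFC HOM. Without N_SN_HOM_4575, Gal of Nestin-Cre SN HOM was 0.07. Without the 5 libraries, Gal was 0.02 and 0.26 for Nestin-Cre SN HET and HOM and Nts −0.16 for AAV-Cre SN HOM. Of the pairs of genes, 10 passed within AAV-Cre. Within Nestin-Cre, r with Cartpt was −0.10 (Slc6a4), −0.13 (Tph2), −0.13 (Fev), −0.01 (Pmch) and −0.23 (Nts); with group means kept it was −0.10 (Pmch) and −0.12 (Nts). For Pmch and Cartpt it was −0.01 without the 5 libraries and −0.02 without A_SN_HOM_3687. Depth limits Oxt, Avp, Hcrt and Fev in SN, which rest on few reads per library.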
